A study of Mus musculus with 6 samples.

Results

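Dendritic cells of the skin other than Langerhans cells were described in 6 mice, as 67 of 21178 single cells. A cell was taken as a dendritic cell if it had UMIs (unique molecular identifiers, each standing for 1 captured RNA molecule) of the MHC class II genes H2-Ab1 and Cd74 and of at least 2 of the 9 genes Flt3, Ccr7, Fscn1, Ccl22, Clec9a, Xcr1, Cd209a, Zbtb46 and Batf3. It also had to lack the Langerhans cell gene Cd207 and the T cell genes Cd3e and Cd3g, to have fewer than 10 UMIs of C1qa, C1qb and C1qc together per 10000, and fewer than 20 of Krt5 and Krt14 together. These genes were read from the same libraries, so their levels describe the choice of cells and were not tested. By mouse the cells numbered 7 of 4972 in NO_AG 1, 6 of 4095 in NO_AG 2, 9 of 3503 in AG 1, 25 of 4664 in AG 2, 9 of 1736 in AG_CPI 1 and 11 of 2208 in AG_CPI 2.

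All 6 animals belonged to the NINJA strain, whose neoantigen expression is inducible, and were 6 to 12 weeks old. Per the labels, the skin of every mouse was treated with 4-OH-Tam (4-hydroxytamoxifen) and was checked for P14 CD8 T cells, whose receptor is a transgene. Libraries came from a 10x Genomics 5' kit. There were 2 mice each in NO_AG (antigen off), AG (antigen on) and AG_CPI (antigen on with CPI, an abbreviation that the labels do not spell out, in a series titled for PD-1). They give no sex, dose, time or batch, and do not say which skin cells make the antigen.

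Dendritic cells take up antigen in tissues, process it and present it on MHC molecules to T cells. Conventional type 1 cells (cDC1), which carry Clec9a and Xcr1, are known for presenting exogenous antigen to CD8 T cells, and conventional type 2 cells (cDC2), which in skin often carry the lectins Cd209a and Mgl2, are known for priming CD4 T cells. On maturation either kind raises Ccr7, the receptor that guides it to the draining lymph node, together with Fscn1, an actin-bundling protein, and chemokines such as Ccl22. Such cells also carry Cd274, which encodes PD-L1, the ligand of PD-1.

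The median depth of the dendritic cells was 6804 UMIs per cell, and by mouse it was 4443, 6208, 10162, 6437, 8993 and 7583 UMIs in the order given above. The library medians lay between 2527 and 4744 UMIs, so the dendritic cells were deeper than their libraries in 6 of 6 mice, by least in NO_AG 1, at 4443 against 4249 UMIs. AG_CPI 1 stood apart in its Xist reads. None of its 9 dendritic cells had an Xist UMI and 1 had a UMI of the Y-linked Ddx3y, against Xist in 4 of 7, 4 of 6, 5 of 9, 17 of 25 and 9 of 11 cells of the other mice, which had no Ddx3y UMI. The main results of the AG_CPI group are given with and without this mouse. Any 2 libraries shared 5 to 35 cell barcodes, of which at most 2 belonged to dendritic cells. Nothing in the labels places 2 mice of a group in separate litters or experiments, so the p-values measure the spread between these animals.

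Most other markers matched the label, while some Langerhans cell markers were present. Cst3, a protease inhibitor abundant in dendritic cells, and H2-Aa, an MHC class II chain, had UMIs in 67 of 67 cells, and neither was used to choose them. Summed over each list and averaged per mouse, T cell markers reached at most 0.92 UMIs per 10000, fibroblast markers 0.65 and neutrophil markers 0.15, and Trbc1, Cd2, Gzma and Gzmb were at 0. B cell markers summed to 8.49 in AG 2 and to under 2 in each other mouse, and Ly6d, which keratinocytes also express, gave 7.93 of the 8.49, while Cd79a was at 0. Keratinocyte markers outside the choice summed to 1.16, 7.68, 2.22, 6.26, 4.55 and 0.69, and those of plasmacytoid dendritic cells to 7.58, 6.76, 7.12, 18.0, 4.51 and 16.8. Macrophage markers summed to 19.4, 7.75, 5.54, 7.71, 4.92 and 7.33 UMIs per 10000, highest in NO_AG 1, where Lyz2 gave 7.34 of them, with Ms4a7 and Pf4 at 0 in every mouse. Langerhans cell markers outside the choice summed to 1.09, 2.31, 75.5, 28.8, 8.61 and 10.3, highest in the AG mice, where Mfge8, described further on, gave 69.0 and 14.0 of them. In Cd207+ cells the same list had a mean of 51.2 over the mice, below AG 1. Without Mfge8 the sums were 0.91, 2.31, 6.53, 14.8, 6.15 and 9.96, with AG and AG_CPI overlapping, and the mean in Cd207+ cells was 18.0. Both Cd207+ means run over mice that differ widely. Cd24a, a gene of the list, was at 4.30, 4.28, 3.08, 2.97, 0.708 and 0.229 in Cd207+ cells by mouse. The means therefore do not describe the Cd207+ cells of AG_CPI. Epcam, an adhesion molecule of Langerhans cells and keratinocytes, had a UMI in 37.3% of the dendritic cells, against 85.1% of Cd207+ cells, 57.0% of keratinocytes, 9.54% of T cells and 4.08% of macrophages. Their median depths were 6804, 4853, 5234, 2596.5 and 4494 UMIs, and after thinning to 1500 UMIs per cell 6 of the 67 dendritic cells kept an Epcam UMI. The part of Langerhans cells with missed Cd207 among them was not tested further. The 85.1% pools all mice, and Epcam in Cd207+ cells was at 15.3, 15.1, 10.7, 8.32, 0.207 and 0.0930 UMIs per 10000 by mouse. In AG_CPI 1 and 2 these cells held 4 and 1 Epcam UMIs over 15 and 18 cells. There 3 of 9 and 4 of 11 dendritic cells had one. Leaving out Epcam-positive cells therefore cannot be read as removing missed Langerhans cells from AG_CPI. Without Epcam-positive cells the share of dendritic cells differed by 0.87 between AG and NO_AG and by 1.65 between AG_CPI and NO_AG in log2 odds. AG 1 was then at 0.114% of cells, below NO_AG 1 at 0.141%, so that AG and NO_AG overlapped. Too few cells were left for a test of genes.

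Many cells lay at the threshold of 2 genes or just below it. Of the cells that met all other conditions, 314 had none of the 9 genes, 100 had 1, 29 had 2, 20 had 3, 10 had 4 and 8 had 5 or more. Ccl22 was found in 40 cells, Ccr7 in 34, Flt3 in 28, Batf3 in 26, Fscn1 in 24, Cd209a in 15, Zbtb46 in 14, Xcr1 in 9 and Clec9a in 8. The 9 genes marked these cells unequally. Flt3, the receptor of the growth factor of conventional dendritic cells, had a UMI in 0% of T cells and keratinocytes and 0.21% of macrophages. Ccl22 had one in 0.08%, 0.08% and 1.99% of these classes, and Ccr7 in 2.45%, 0.10% and 1.26%. Fscn1 was also present in 8.55% of keratinocytes and Batf3 in 12.6% of macrophages.

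The cells were split by the same genes into 4 subsets, which are descriptions only. Cells with at least 2 of Ccr7, Fscn1 and Ccl22, here called mature, were assigned first and numbered 33, whatever other genes they had. Of the rest, those with Clec9a or Xcr1 numbered 10. Of those then left, cells with Cd209a numbered 14 and the remaining cells 10. Mature cells numbered 2, 3, 7, 10, 5 and 6 by mouse, in the order above. Clec9a/Xcr1 cells numbered 0, 2, 0, 5, 1 and 2, and Cd209a cells 4, 1, 2, 6, 0 and 1. Every group therefore held mature and Clec9a/Xcr1 cells, and Cd209a cells were fewest in AG_CPI, at 1 of 20 cells. Mean shares of Cd209a cells were 36.9% in NO_AG, 23.1% in AG and 4.55% in AG_CPI (SD 28.6, 1.26 and 6.43 percentage points, n = 2 each), and AG_CPI 2 alone had 9.09%.

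**Figure D1:**
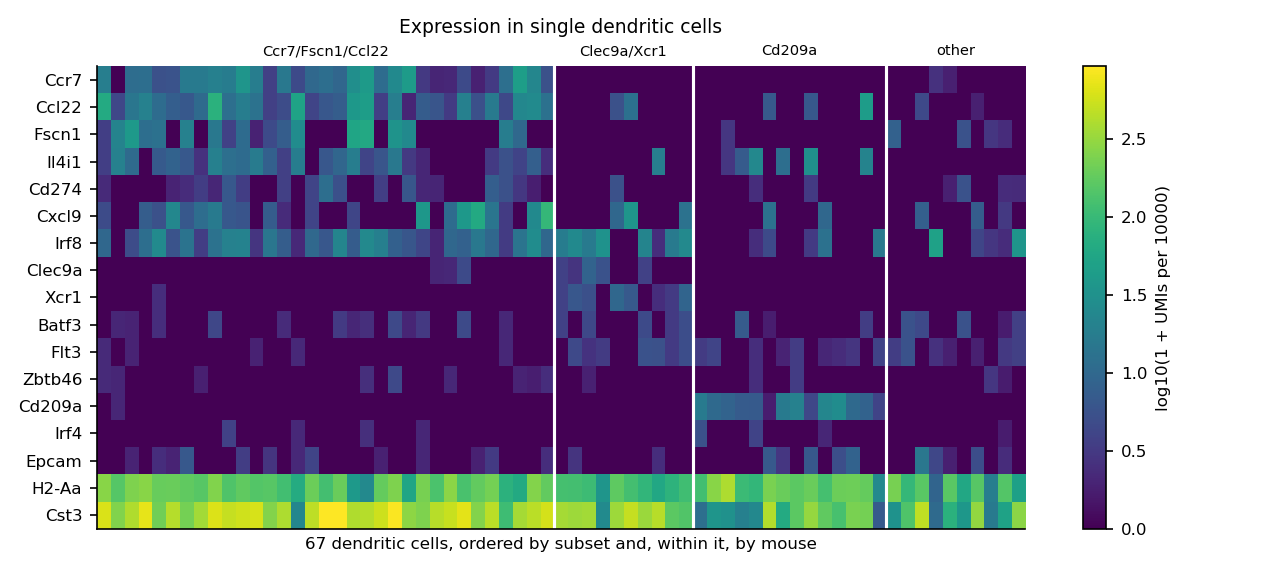
Level of 17 genes in each of the 67 dendritic cells, as log10(1 + UMIs per 10000), with the cells in columns ordered by subset and, within it, by mouse. By construction, Ccr7 and Ccl22 lie mostly in the mature cells and Cd209a almost wholly in its own subset. Il4i1 was found in 27 of 33 mature and 6 of 14 Cd209a cells, and H2-Aa and Cst3 are present in every cell.

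Genes outside the choice differed in detection between the subsets. Median depth differed too, at 8861 UMIs in mature, 4448 in Clec9a/Xcr1, 5256 in Cd209a and 6312.5 in other cells. The part of depth in the counts that follow was not tested. Il12b, the p40 chain of interleukin 12, had UMIs in 11 cells, all of them mature and Ccr7-positive. H2-M2, an MHC class Ib gene of activated dendritic cells, had UMIs in 12 cells, all mature. Il4i1, a secreted amino acid oxidase, was found in 27 of 33 mature cells, 6 of 14 Cd209a cells, 1 of 10 Clec9a/Xcr1 cells and 0 of 10 others. Cd274 was found in 19 of 33 mature cells and 7 of the other 34. Irf8, a transcription factor needed for cDC1 development, had UMIs in 8 of 10 Clec9a/Xcr1 cells and in 32 of 33 mature cells, against 5 of 14 Cd209a cells. Irf4, a factor of cDC2, was sparse everywhere and was found in 3 of 14 Cd209a and 4 of 33 mature cells. The lectins Mgl2 and Clec10a were found in 10 and 8 of the 14 Cd209a cells and in none of the Clec9a/Xcr1 cells.

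The first question was whether the share of dendritic cells differed between the groups. They made up 0.141% of all cells in NO_AG 1 and 0.147% in NO_AG 2, 0.257% in AG 1 and 0.536% in AG 2, and 0.518% in AG_CPI 1 and 0.498% in AG_CPI 2. Both antigen-on groups lay above both NO_AG mice, which for AG did not hold without Epcam-positive cells, and the AG mice spanned the AG_CPI mice. The exact binomial 95% intervals were 0.0566% to 0.290% in NO_AG 1 and 0.347% to 0.790% in AG 2, and they cover counting error only. On the log2 odds scale the share was 1.32 higher in AG than in NO_AG, 1.79 higher in AG_CPI than in NO_AG and 0.47 higher in AG_CPI than in AG. Two-sided exact permutation tests gave p = 0.333, 0.333 and 0.667, where 0.333 is the smallest value that 2 against 2 mice can give, so none could pass 0.05. Without AG_CPI 1 the last 2 differences were 1.76 and 0.44.

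The size of that difference depended on which cells were counted beside them. Keratinocytes made up 43.2% and 36.8% of cells in NO_AG, then 17.9% and 13.8% in AG and then 6.34% and 7.29% in AG_CPI. Among cells outside the keratinocyte choice, the dendritic cell share was 0.83 higher in AG and 1.15 higher in AG_CPI than in NO_AG on the log2 odds scale. Among cells with Ptprc, which encodes the leukocyte marker CD45, the differences were 0.69 and 0.53. Among dendritic cells, Cd207+ cells and C1q macrophages together, dendritic cells made up 3.11%, 4.08%, 4.95%, 5.01%, 4.21% and 5.37% by mouse, and the differences were 0.45 and 0.40. The NO_AG mice remained below the others under these denominators, each with exact permutation p = 0.333. Over the same libraries the Cd207+ share of all cells was 1.67 lower in AG than in NO_AG and the C1q macrophage share 4.03 higher (log2 odds, exact permutation p = 0.333 each). In dissociated tissue, more cells of a type and better release of that type cannot be told apart.

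**Figure D2:**
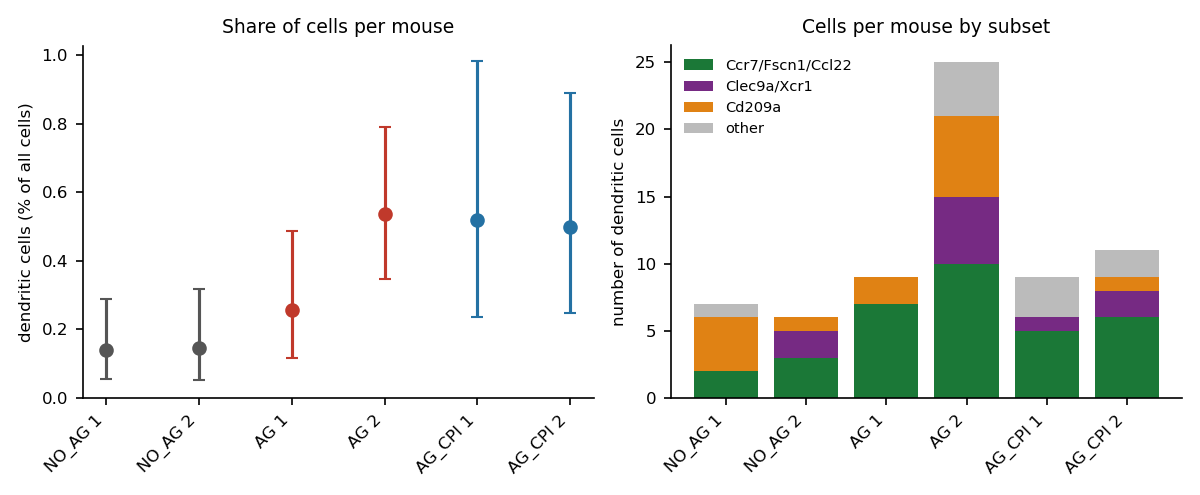
Left, dendritic cells as a percentage of all cells in each of the 6 mice, with exact binomial 95% intervals, which cover counting error only. Right, the number of dendritic cells per mouse by subset; NO_AG mice sit at 0.141% and 0.147%, below the other 4, and AG 2 holds 25 of the 67 cells.

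Genes were compared on the mean UMIs per 10000 over the dendritic cells of each mouse, as log2 of that mean plus 0.1, with limma and Benjamini-Hochberg adjustment over the 1340 genes with enough UMIs. The design had asked for 10 dendritic cells per mouse, which only AG 2 and AG_CPI 2 reached. The minimum was lowered to 5 once the cell numbers and some detection shares were known, ahead of all gene tests. The comparisons with NO_AG thus rest on 7 and 6 cells with 35702 and 37868 UMIs in all. Of the 1340 genes, 738 reached the filter in neither NO_AG mouse, against 974 that reached it in both AG mice, so many entered only through an antigen-on group. The dendritic cells of those groups were also deeper in total, and a gene at an equal level could reach the filter there alone. Counts over gene lists are therefore given without that filter, beside the same count over all genes with a UMI in either group. Those include many genes with few UMIs. Over the 1340 genes, 33.9% had both AG mice above both NO_AG mice and 9.93% below. For AG_CPI against NO_AG it was 28.9% and 13.6%, and for AG_CPI against AG 14.3% and 24.8%. The part of UMI number in the list counts was not tested. The median of all genes in AG against NO_AG was 0.30 on the log2 scale after the scaling used here and 0.17 with the deposited scaling, and in AG_CPI against AG it was -0.09 and 0.03.

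Between AG and NO_AG, 1 gene rose and none fell (0.0746% of the 1340 genes called), while 173 genes (12.9%) had an unadjusted p under 0.05, 159 of them higher and 14 lower in AG. The gene was Mfge8, which encodes a secreted protein that bridges dying cells to phagocytes and lies at chr7:79133768-79149060 (mm10). Its mean level in dendritic cells was 0.18 and 0 UMIs per 10000 in the NO_AG mice, 69.0 and 14.0 in the AG mice, and 2.47 and 0.33 in the AG_CPI mice. Both AG mice lay above all 4 others. The fitted difference between AG and NO_AG was 7.64 on the log2(value + 0.1) scale (SE 0.98, limma adjusted p = 0.0339). Mfge8 reached the filter in antigen-on mice alone.

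A few cells carried the Mfge8 signal. In AG 1 it was found in 3 of 9 cells, which held 331 UMIs, and in AG 2 in 9 of 25 cells, which held 258. In NO_AG 1 it was a single UMI, in AG_CPI 1 it was 1 cell with 22 UMIs and in AG_CPI 2 it was 2 cells with 4. The pooled level in AG was 176 times that in NO_AG, with a counting interval of 31.4 to 6955. Mature cells held 563 of the 616 Mfge8 UMIs, and of the 16 positive cells 12 had Ccr7, 14 had Ccl22 and 7 had Epcam. Mfge8 was also present in 82.2% of Cd207+ cells, and the part of Langerhans cells with missed Cd207 in this result was not tested. The call was lost without AG 1, at 6.54 (adjusted p = 0.241), without AG 2, at 8.82 (adjusted p = 0.0646), and with the deposited scaling, at 7.54 (adjusted p = 0.0542), all with limma.

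Genes of the interferon-gamma response were higher in AG than in NO_AG in direction, and no single one passed the adjusted test. Of 27 listed genes with a UMI in either group, 18 had both AG mice above both NO_AG mice and 0 had both below, against 19.6% above and 9.51% below over 9284 genes. Cxcl9, a chemokine that draws CXCR3-bearing T cells, was at 0.54 and 1.81 UMIs per 10000 in NO_AG, then 8.49 and 2.91 in AG and then 9.93 and 19.1 in AG_CPI. It was lowest in the NO_AG mice and highest in the AG_CPI mice, with no overlap between the 3 groups. Its fitted difference between AG and NO_AG was 2.34 on the log2 scale (limma adjusted p = 0.158). Gbp2, a GTPase induced by interferons, was at 0 and 0.36, then 4.28 and 0.63, then 1.96 and 1.59 UMIs per 10000 in the same order, with a fitted AG difference of 3.18 (limma adjusted p = 0.231). Irf1 did not follow, since its highest mean, 2.54, was in NO_AG 2, where 1 cell held 9 of its 13 UMIs.

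The type I interferon list shared no gene with that list. Of its 22 genes with a UMI in either group, 11 had both AG mice above both NO_AG mice and 0 below, against the 19.6% and 9.51% of all genes. Isg15, a ubiquitin-like protein of the antiviral response, was at 0 and 1.08 UMIs per 10000 in NO_AG, then 4.52 and 2.87 in AG and then 1.73 and 6.94 in AG_CPI. The 4 antigen-on mice were above both NO_AG mice, and the fitted AG difference was 3.56 (limma adjusted p = 0.197).

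MHC class I genes, some of which are also in the interferon-gamma list, were partly higher. Of 16 genes, 8 had both AG mice above both NO_AG mice, 1 had both below and the rest overlapped, against 19.6% above and 9.51% below over all genes. H2-K1, a classical class I heavy chain, was at 7.12 and 8.77 UMIs per 10000 in NO_AG, then 20.4 and 18.0 in AG and then 22.8 and 13.2 in AG_CPI. B2m, the shared light chain, was at 14.3 and 19.9 in NO_AG, then 38.2 and 24.7 in AG and then 31.7 and 24.7 in AG_CPI. Tap1, which pumps peptides toward class I molecules, was at 0.53 and 1.27, then 2.29 and 2.48, then 2.50 and 2.96. For these 3 genes both NO_AG mice were lower than the 4 antigen-on mice. The fitted differences between AG and NO_AG were 1.41 for H2-K1, 1.01 for B2m and 1.56 for Tap1 (limma adjusted p = 0.127, 0.158 and 0.246). Class I heavy chains are near-identical in sequence, so reads may be split between them.

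MHC class II genes did not move as a block: 4 of 10 had both AG mice above both NO_AG mice and 1 had both below, against 19.6% and 9.51% of all genes. H2-Aa was at 221 and 175 UMIs per 10000 in NO_AG, then 185 and 134 in AG and then 124 and 126 in AG_CPI, so the AG_CPI mice were lowest. H2-Oa, a chain of the H2-O protein that restrains peptide loading on class II, went the other way. It had 0 UMIs in both NO_AG mice and was at 1.67 and 1.44 UMIs per 10000 in AG and 1.12 and 1.70 in AG_CPI, which is at least 3.08-fold and 3.97-fold higher than a floor of 3 UMIs over the NO_AG group. With either NO_AG mouse left out the bounds were at most 1.59-fold and 2.04-fold.

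**Figure D3:**
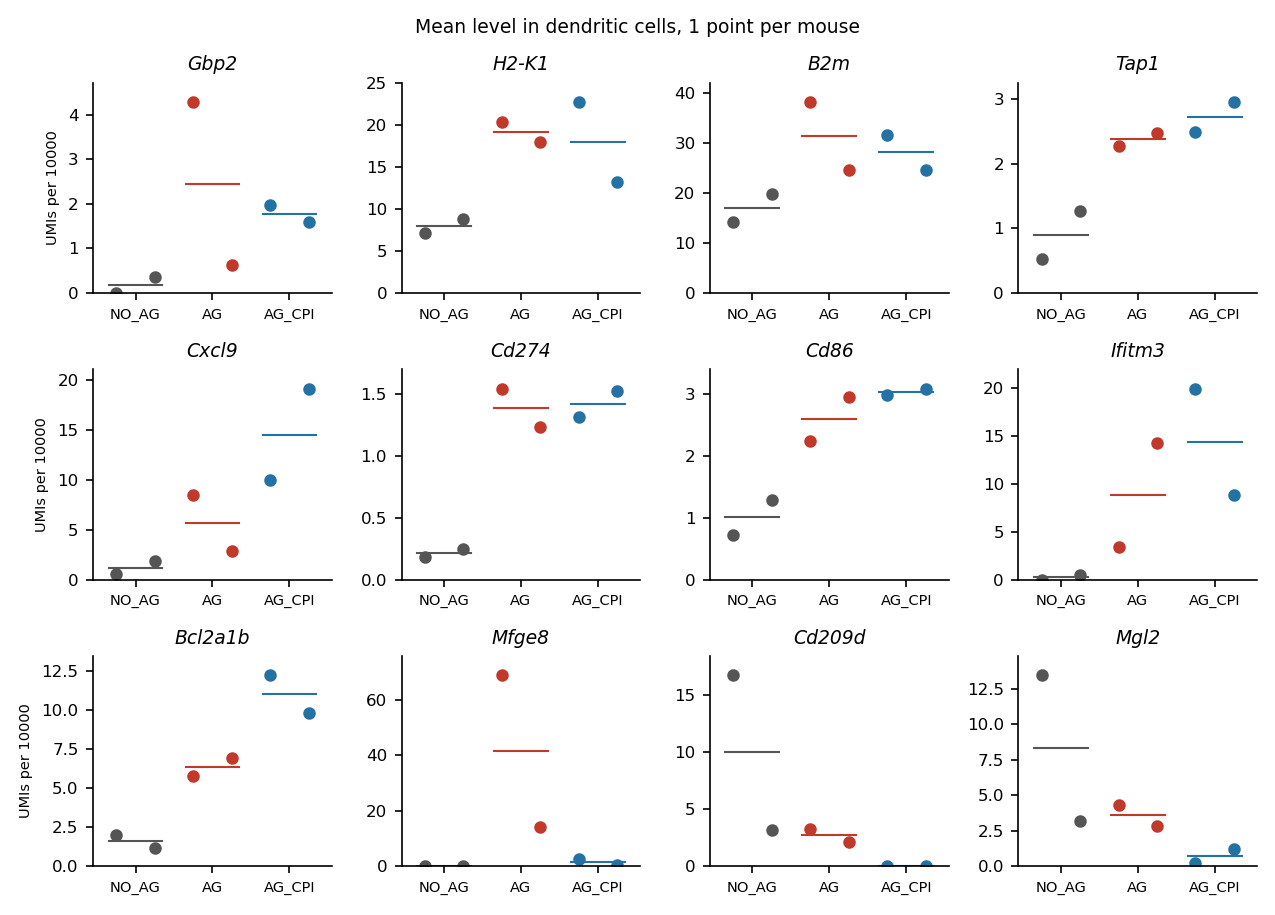
Mean UMIs per 10000 over the dendritic cells of each mouse for 12 genes, with 1 point per mouse and a line at the mean of the 2 mice of a group. Of these genes only Mfge8 passed the adjusted test between AG and NO_AG, and Ifitm3, Bcl2a1b and Cd209d between AG_CPI and NO_AG.

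Some genes of maturation and costimulation were higher in both AG mice, and none passed the adjusted test. Of 30 maturation genes, 12 had both AG mice above both NO_AG mice and 3 below, and of 15 costimulation genes 6 and 2, against 19.6% above and 9.51% below over all genes. Cd86, a ligand of CD28, was at 0.73 and 1.28 UMIs per 10000 in NO_AG, then 2.23 and 2.95 in AG and then 2.97 and 3.08 in AG_CPI, with both antigen-on groups above NO_AG and a fitted AG difference of 1.46 (limma adjusted p = 0.243). Cd80, the other CD28 ligand, was also lowest in the NO_AG mice, at 0.18 and 0.25, then 0.74 and 0.78, then 0.60 and 0.81. Cd40, the receptor through which CD4 T cells license dendritic cells, overlapped between groups, at 0.49 and 3.42 in NO_AG and 4.81 and 2.29 in AG. Genes of the rule that chose the cells are left out of these counts. The part of the differing share of mature cells in these counts was not tested.

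Cd274 was at 0.18 and 0.24 UMIs per 10000 in NO_AG, then 1.54 and 1.23 in AG and then 1.31 and 1.52 in AG_CPI. The 4 antigen-on mice were all above both NO_AG mice, and AG and AG_CPI overlapped. These means rest on 1, 1, 9, 14, 8 and 13 UMIs. The pooled level in AG was 3.43 times that in NO_AG with a counting interval of 0.848 to 30.03, and the fitted difference was 2.37 (SE 0.65, limma adjusted p = 0.158). In AG_CPI against NO_AG it was 2.29 (limma adjusted p = 0.237). Mature cells held 37 Cd274 UMIs, against 5 in other, 3 in Cd209a and 1 in Clec9a/Xcr1 cells. The mean share of mature cells was 39.3% in NO_AG, 58.9% in AG and 55.1% in AG_CPI. Its part in these differences was not tested. Pdcd1lg2, which encodes PD-L2, the other ligand of PD-1, overlapped between the groups, at 0.28 and 0.88 UMIs per 10000 in NO_AG, then 0.56 and 1.07 in AG and then 0.58 and 1.11 in AG_CPI. Havcr2, which encodes the inhibitory receptor TIM-3, was at 0.28 and 1.03, then 1.41 and 1.79, then 3.08 and 2.05, with no overlap between the 3 groups.

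A few chemokine genes were carried almost wholly by single cells. Of 13 chemokine genes, 2 had both AG mice above both NO_AG mice and 0 below, near the 19.6% and 9.51% of all genes. Ccl17, which with Ccl22 binds CCR4, was at 7.98, 0.72, 9.77, 5.53, 1.63 and 0.81 UMIs per 10000 by mouse, and 1 cell per mouse held 77 of its 80 UMIs in AG 1 and 53 of 56 in AG 2. Of 72 Ccl5 UMIs in NO_AG 2, 71 came from 1 cell, and of 117 Ccl24 UMIs in AG 2, 116 came from 1 cell. Cxcl9 was found in 29 cells. Cxcl16, a chemokine that also serves as a scavenger receptor, was at 2.12, 8.57, 15.5, 7.79, 11.2 and 7.68, with overlap between groups. Il12b was at 0.91 and 0.32 in NO_AG, then 2.18 and 0.18 in AG and then 1.96 and 3.49 in AG_CPI, and 1 cell held 14 of its 18 UMIs in AG 1 and all 17 in AG_CPI 1. Il12a, Il6, Il10, Il23a, Il33 and Ccl19 had no UMI in any of the 67 cells. Il1r2, a decoy receptor for interleukin 1, had 0 UMIs in both NO_AG mice and was at 1.51 and 8.32 in AG and 1.97 and 6.20 in AG_CPI, at least 18.0-fold and 11.1-fold above the floor of 3 UMIs. With 1 mouse left out these bounds were as low as 4.52 (without AG 2) and 5.39 (without NO_AG 2).

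Between AG_CPI and NO_AG, 2 genes rose and 1 fell (0.224% of 1340 genes called), while 169 (12.6%) had an unadjusted p under 0.05, 130 of them higher and 39 lower. These comparisons share the NO_AG mice with the ones above. Bcl2a1b, of the anti-apoptotic A1 family, at chr9:89199209-89207827, was at 2.01 and 1.17 UMIs per 10000 in NO_AG, then 5.76 and 6.90 in AG and then 12.2 and 9.79 in AG_CPI. The groups did not overlap, and the fitted difference between AG_CPI and NO_AG was 2.78 (SE 0.39, limma adjusted p = 0.0326). Ifitm3, a membrane protein induced by interferons that restricts virus entry, at chr7:141009586-141010770, was at 0 and 0.46, then 3.44 and 14.2, then 19.9 and 8.83, with a difference of 5.82 (SE 0.89, limma adjusted p = 0.0426). It reached the filter only in antigen-on mice. NO_AG held 1 Ifitm3 UMI and AG_CPI 202. Bcl2a1b has near-identical neighbours, as does Ifitm3 in its family, and the counts may be split among them. Bcl2a1b was found in 31 of 33 mature cells and 11 of the other 34, and the mean share of mature cells was 39.3% for NO_AG, 58.9% for AG and 55.1% for AG_CPI. Their part in the result was not tested.

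The gene that fell was Cd209d, a C-type lectin at chr8:3871824-3878555 in the same cluster as Cd209a. It was at 16.8 and 3.18 UMIs per 10000 in NO_AG, then 3.28 and 2.13 in AG and then 0 in both AG_CPI mice. Its level in AG_CPI was at least 43.4-fold lower than in NO_AG and at least 15.9-fold lower than in AG, with 3 UMIs over the group as the floor. With 1 mouse left out the bounds were as low as 17.7-fold (without NO_AG 1) and 6.91-fold (without AG_CPI 2). It reached the filter in the NO_AG and AG mice alone. The fitted difference to NO_AG was -6.16 (SE 0.79, limma adjusted p = 0.0326), a value that depends on the added 0.1. It was found in 6 of 7 cells of NO_AG 1 and 6 of 25 of AG 2, and in 1 cell each of NO_AG 2 and AG 1. Of its 14 positive cells, 10 also had Cd209a, a gene of the rule and a paralog whose reads may be split with it.

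The other lectins of that kind lay in the same order. Clec10a was at 6.01 and 0.24 UMIs per 10000 in NO_AG, then 0.86 and 1.08 in AG and then 0 in both AG_CPI mice. Of its 18 UMIs in NO_AG 17 were in NO_AG 1, so no fold is given against that group. Mgl2 was at 13.4 and 3.18 in NO_AG, then 4.31 and 2.82 in AG and then 0.24 and 1.21 in AG_CPI. For Cd209d, Clec10a and Mgl2 both AG_CPI mice were below the other 4, while the AG and NO_AG mice overlapped. Of 12 cDC2 genes, 5 had both AG_CPI mice below both NO_AG mice and 1 above, against 9.24% below and 19.2% above over 8944 genes. With AG_CPI 2 alone, 5 of 12 were below both NO_AG mice and 2 above, against 15.1% and 42.6% of 8123 genes. The Cd209a subset numbered 5 of 13 cells in NO_AG and 1 of 20 in AG_CPI, and a change within a subset and a change in its number cannot be told apart here.

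These 3 calls were lost when either AG_CPI mouse was left out, with adjusted p of 0.204 or more. Without AG_CPI 1, 0 genes were called. Without NO_AG 1, whose macrophage markers were highest, Cd209d and Ifitm3 had adjusted p = 0.0579 and 0.0672, and without NO_AG 2, in which Scrublet marked 3 of 6 cells as doublets, all 3 stayed among 37 called genes. With no filter Ifitm3 and Bcl2a1b were not called (adjusted p = 0.0593 each), Ifitm3 was not with the deposited scaling (0.0553), and Bcl2a1b was not with summed UMIs (0.101), all with limma.

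Many interferon-gamma response genes lay higher in both AG_CPI mice than in both NO_AG mice. Of 28 interferon-gamma response genes, 17 had both AG_CPI mice above both NO_AG mice and 0 below, and of 16 class I genes 9 and 0, against 19.2% above and 9.24% below over all genes. With AG_CPI 2 alone the counts were 22 of 26 and 0, and 9 of 16 and 1, against 42.6% and 15.1%. Cxcl9 had a fitted difference of 3.67 between AG_CPI and NO_AG (limma adjusted p = 0.0572), or 4.13 (adjusted p = 0.483) without AG_CPI 1, and H2-K1 of 1.15 (adjusted p = 0.211). No fixed gene passed the adjusted test.

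Between AG_CPI and AG, limma called 0 of 1340 genes (0% called), with 45 (3.36%) at an unadjusted p under 0.05, of which 7 were higher and 38 lower. This split depended on the scaling, since the deposited scaling gave 19 higher and 24 lower. Of 30 maturation genes, 3 had both AG_CPI mice above both AG mice and 10 below, against 14.5% above and 12.6% below over 9788 genes. Of 13 cDC2 genes, 1 was above and 8 below, and of 14 cDC1 genes 4 and 0. With AG_CPI 2 alone, 7 maturation genes were above both AG mice and 13 below, 3 and 8 cDC2 genes, and 9 and 1 cDC1 genes, against 36.2% above and 23.4% below over 9321 genes. Il4i1 was at 9.02 and 5.16 UMIs per 10000 in AG and 2.30 and 1.64 in AG_CPI, after 4.29 and 6.50 in NO_AG. Its fitted difference was -1.87 (limma adjusted p = 0.525), or -2.11 (adjusted p = 0.999) without AG_CPI 1.

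The mature cells allowed a test of their own between AG and AG_CPI, with 7, 10, 5 and 6 cells in the 4 mice. The NO_AG mice had 2 and 3 mature cells and were not tested. Many AG_CPI cells met the rule for mature cells with few Ccr7 UMIs. By cell, Ccr7 UMIs were 40, 2, 1, 1 and 1 in AG_CPI 1 and 1, 10, 45, 29, 3 and 1 in AG_CPI 2. They were 5, 11, 19, 17, 6, 14 and 18 in AG 1. In AG 2 they were 27, 12, 7, 3, 11, 3, 3, 2, 4 and 27. In AG_CPI 1 the cells with 1 Ccr7 UMI also had a Clec9a UMI. The part of this unequal mix in the called genes was not tested. Of 757 genes, 2 rose and 4 fell in AG_CPI (0.793% called), and 67 (8.85%) had an unadjusted p under 0.05. Of these Mfge8 fell most, from 88.7 and 29.5 UMIs per 10000 in AG to 4.44 and 0.376 in AG_CPI, a fitted change of -5.21 on the log2 scale (limma adjusted p = 1.33e-05). It was found in 3 of 7 and 5 of 10 mature cells of the AG mice and in 1 of 5 and 1 of 6 of the AG_CPI mice. In Cd207+ cells Mfge8 was at 43.8 and 84.9 in AG and 0.155 and 0.486 in AG_CPI, a change of -7.45 (limma adjusted p = 4.24e-05). Langerhans cell markers other than Mfge8 overlapped between AG and AG_CPI in the dendritic cells, as given above. In Cd207+ cells Epcam, another such marker, was at 10.7 and 8.32 in AG and 0.207 and 0.0930 in AG_CPI. Cd207+ cells had no C1q limit, and their C1qa was at 21.1 and 21.3 in AG and 31.2 and 55.1 in AG_CPI. The Cd207+ cells of the 2 groups were thus not alike, and neither comparison can settle the source of Mfge8. The part of Langerhans cells with missed Cd207 in this result was not tested.

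The other genes that fell were Il4i1, Nfkbia and H2-M2. Il4i1 was at 10.1 and 8.02 UMIs per 10000 in AG and 0.627 and 3.01 in AG_CPI, with UMIs in 7 of 7, 9 of 10, 2 of 5 and 5 of 6 mature cells (-2.68, limma adjusted p = 0.0187). Nfkbia, the inhibitor of NF-kB that NF-kB itself induces, was at 8.21 and 5.97 in AG and 1.49 and 2.26 in AG_CPI (-1.96, limma adjusted p = 0.0403). H2-M2 was at 12.1 and 2.46 in AG and 0.852 and 0 in AG_CPI (-4.24, limma adjusted p = 0.0381). It had 51 and 11 UMIs in AG and 4 and 0 in AG_CPI, so it entered the test only through the group where it was high. Il4i1 and Nfkbia were carried by most mature cells, whereas H2-M2 in AG 2 rested on 3 of 10 cells. In AG_CPI mature cells with 10 or more Ccr7 UMIs, Il4i1 UMIs were 2, 4, 3 and 9. In the other AG_CPI mature cells they were 0 or 1. H2-M2 fell in Cd207+ cells too, by 2.79 on the log2 scale (limma adjusted p = 0.00882), while Il4i1 and Nfkbia had changes of -0.03 and 0.03 there.

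The 2 genes that rose were Cxcl9 and Plbd1. Cxcl9 was at 9.26 and 1.38 UMIs per 10000 in AG and 16.6 and 32.7 in AG_CPI (2.57, limma adjusted p = 0.0187). Plbd1, a lysosomal phospholipase-like protein, was at 0.785 and 0.831 in AG and 11.6 and 2.88 in AG_CPI (2.62, limma adjusted p = 0.0403), with UMIs in 1 of 7, 3 of 10, 5 of 5 and 4 of 6 mature cells. Over all 6 mice Plbd1 was found in 16 of 33 mature cells, against 12 of 14 Cd209a and 8 of 10 Clec9a/Xcr1 cells. It had 5 and 7 UMIs in AG and 32 and 17 in AG_CPI, so it reached the filter of 10 UMIs only in the group where it was high. Single cells of the groups overlapped for all 6 genes, while the mouse means did not. In AG_CPI mature cells with at most 3 Ccr7 UMIs, Cxcl9 UMIs were 34, 0, 9, 10, 73, 64 and 6. In those with 10 or more they were 0, 2, 0 and 32. Plbd1 UMIs were 5, 3, 14, 9, 8, 3 and 1 in the former cells and 1, 0, 0 and 5 in the latter. The part of this mix of cells in the 2 rises was not tested. With each of the 4 mice left out in turn, where the lone mouse of a group is assumed to vary like the others, 1 to 16 genes were called, and Mfge8 was called each time, with -6.82 (limma adjusted p = 0.0300) without AG_CPI 1, where it was the only one, and -3.59 (adjusted p = 0.0492) without AG_CPI 2. The Cxcl9 difference was 1.24 without AG 2 and 3.88 without AG 1. Il4i1 was lost without AG_CPI 1, Cxcl9 and Plbd1 when either AG_CPI mouse was left out (Plbd1 then missed the filter), and Nfkbia in all 4 fits. H2-M2 was not called in any of them and reached the filter in 2.

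**Figure D4:**
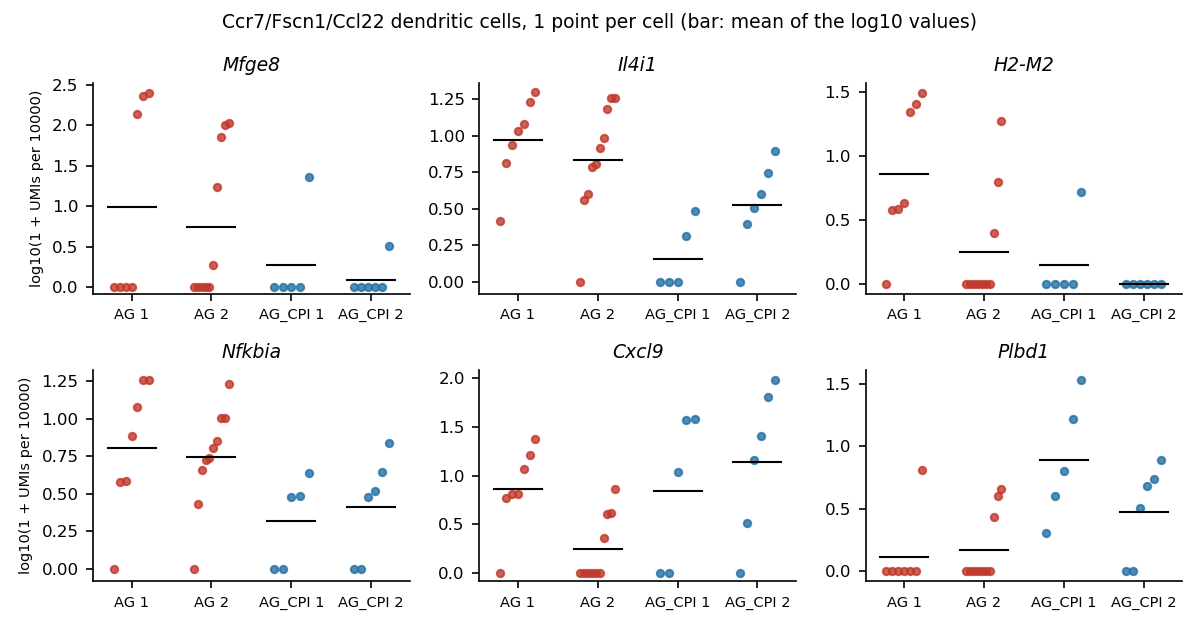
Each point is 1 mature (Ccr7/Fscn1/Ccl22) dendritic cell of the AG and AG_CPI mice, as log10(1 + UMIs per 10000), with a bar at the mean of these log values per mouse. Mfge8 is carried by 3 of 7 and 5 of 10 AG cells, and Plbd1 by 9 of 11 AG_CPI cells against 4 of 17 AG cells.

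The differences between AG and NO_AG were set beside those of other skin cells, chosen by single rules of the same kind. Cd207+ cells numbered 450 and macrophages with C1q genes 955, and keratinocytes with Krt5 or Krt14 5196. For H2-K1 the difference between AG and NO_AG was 1.41 in dendritic cells, 1.62 in Cd207+ cells (limma adjusted p = 0.00111), 1.33 in macrophages (adjusted p = 0.00962) and 0.59 in keratinocytes (adjusted p = 0.302). For B2m it was 1.01, 1.09, 1.71 and 0.72, and for Cxcl9 2.34, 3.34, 6.04 and 3.22. The sign was the same in the 4 classes for these 3 genes.

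The difference between classes was tested on the per-mouse difference of log2 means. Dendritic cells minus Cd207+ cells gave -0.21 for H2-K1, -0.08 for B2m and -1.01 for Cxcl9 (limma adjusted p between 0.813 and 0.988). Of 6022 genes, 3 (0.0498%) passed the test of the difference to Cd207+ cells, and none of them is a result about dendritic cells. C1qb and C1qc are limited by the rule for dendritic cells and count as description. Ms4a7, a membrane protein of tissue macrophages, had 0 UMIs in dendritic cells and rose in Cd207+ cells, from 0.0269 and 0.00650 UMIs per 10000 in NO_AG to 2.92 and 2.91 in AG. The rise there was 4.77 (limma adjusted p = 2.00e-05). The difference between the classes, -4.77 (limma adjusted p = 0.0262), only repeats that rise with its sign turned, and shows no difference in response of a gene that both classes express. It was lost with a replicate block (adjusted p = 0.0917) and with each mouse left out (0.211 to 0.430). Cd207+ cells had no C1q limit, and their mean Lyz2 level was 0.451 and 0.260 UMIs per 10000 in NO_AG, then 6.08 and 3.26 in AG and then 27.1 and 17.0 in AG_CPI. Against keratinocytes limma called 0 of 8217 genes in AG against NO_AG and 0 in AG_CPI against NO_AG, with 736 and 937 at an unadjusted p under 0.05. Against macrophages it called 0 of 6493 in AG_CPI against AG, with 147 unadjusted.

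**Figure D5:**
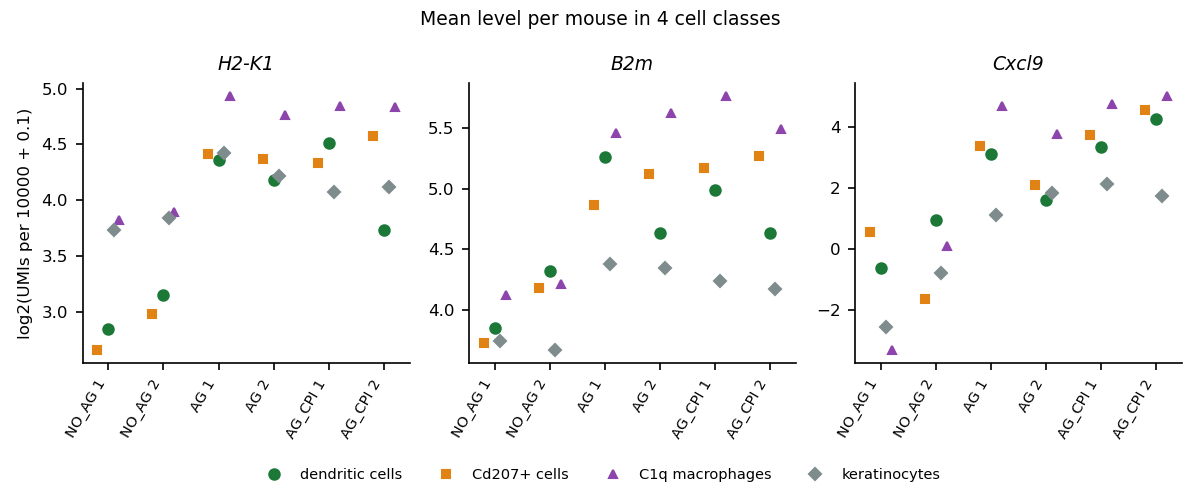
Mean level per mouse of H2-K1, B2m and Cxcl9 in dendritic cells, Cd207+ cells, macrophages with C1q genes and keratinocytes, as log2(UMIs per 10000 + 0.1). For H2-K1 and B2m the NO_AG points of dendritic cells lie below all 4 of their antigen-on points.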

How the data were processed

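RNA of single skin cells was measured in 6 mice. The deposited values are log10 of 1 plus UMIs per 10000 UMIs of a cell, as read from the values, of which 100% gave whole UMIs within 0.02; no label states the unit. Per the submitters' processing notes, Cell Ranger 3.1 and mm10 were used; the cell filters are not given in the sources used here. Raw counts had been assumed in the design, so limma was used on log values in place of a count model. Positions are from the GRCm38 (mm10) annotation.

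Values were inverted, averaged per mouse over dendritic cells, given TMM scaling factors (trimmed mean of M-values), and fitted with limma 3.58.1 (R 4.3.3) as log2 of the mean plus 0.1, with all 6 mice in 1 fit and group as the only term. Genes needed 10 UMIs and a mean of 0.1 in at least 2 mice, and calls are at an adjusted p of 0.05. The planned minimum of 10 cells per mouse was lowered to 5, as stated in the report. Differences between classes were fitted likewise on per-mouse differences of log2 means. Shares were compared as log2 odds with 0.5 added, by exact permutation. Intervals and floors (3 UMIs) cover counting error only.

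All cells were kept. Scrublet (scanpy 1.11.5) marked 3 of 6 dendritic cells in NO_AG 2, 1 of 25 in AG 2 and none elsewhere, and removing them was an alternative. Named genes were those called with non-overlapping mice, smallest p first, plus fixed genes; the fit was tested on simulated data. The members and lists were chosen with earlier results of these data known. Alternatives were other scalings, pseudocounts, filters, summed UMIs, stricter rules, thinning to 1500 UMIs, a replicate block and leaving out each mouse. The labels' replicate numbers were not taken as pairs.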

Additional observations from a re-analysis of the deposited data

Results flagged for a closer look

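Ms4a7 was singled out because the change between AG and NO_AG in dendritic cells minus that in Cd207+ cells passed its test, at -4.77 on the log2 scale (limma adjusted p = 0.0262). Dendritic cells had 0 Ms4a7 UMIs, and in Cd207+ cells, for which no upper limit on C1q genes was set, Ms4a7 rose by 4.77. The value therefore repeats the rise in Cd207+ cells with its sign turned, and it shows no difference in response. The difference was no longer called with a pseudocount of 0.5, at -2.79 (adjusted p = 0.138), with a replicate block (adjusted p = 0.0917) or with any 1 mouse of the 2 groups left out (adjusted p = 0.211 to 0.430, all limma).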

How the results depend on the processing

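The share of dendritic cells kept its direction against NO_AG in every alternative run, between 0.81 and 1.83 in AG and between 1.76 and 1.83 in AG_CPI as each mouse was left out. The AG_CPI against AG share turned to -0.16 among Ptprc-positive cells and to -0.053 among dendritic, Cd207+ and C1q cells, with -0.035 to 0.98 over mice left out. Subset shares turned as follows. The mature share in AG against NO_AG was -0.10 after thinning, and in AG_CPI against AG it was 0.48 with 3 genes required and 0.92 after thinning (mice left out: -1.32 to 0.83). The Clec9a/Xcr1 share was 0.14 without Scrublet doublets and 0.27 without Epcam-positive cells in AG against NO_AG (-2.23 to 0.83), -0.37 without Epcam-positive cells in AG_CPI against AG (-0.32 to 2.03), and -0.71, -0.69 and -0.10 with 3 genes required, after thinning and without Epcam-positive cells in AG_CPI against NO_AG (-1.37 to 1.69). The Cd209a share in AG against NO_AG was 0.077 with 3 genes required (-1.95 to 0.29). Cd83 in AG against NO_AG was -0.041 with summed UMIs.

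Numbers of called genes moved as follows; with a mouse left out, the lone mouse of a group is assumed to vary like the others. AG against NO_AG gave 0 with the deposited scaling and 2 with summed UMIs, and 0 to 20 over mice left out (20 without NO_AG 2, 6 without NO_AG 1, 0 without AG 2). AG_CPI against NO_AG gave 1 with no filter, 6 without cells holding Cd79a or Trac (chosen for Cd79a, Siglech and Trac, where Siglech had no column), and 0 to 37 over mice left out. AG_CPI against AG gave 1 without Scrublet doublets and 0 over mice left out. The mature cells gave 1 to 16. The difference to Cd207+ cells gave 0 with a pseudocount of 0.5 and 0 to 1 over mice left out. In the fit with a replicate block, AG against NO_AG gave 1, AG_CPI against NO_AG 5, AG_CPI against AG 1 (Mfge8) the mature cells 5, with Nfkbia at adjusted p = 0.0610, and the difference to Cd207+ cells 2 (C1qb and C1qc). Same-numbered mice had deviations correlated at -0.138, -0.001 and 0.136 over 1340 genes. With 2 mice per group, replicates 1 and 2 give the same values by construction. These correlations therefore cannot decide whether the numbers pair the mice. Of 340 values for single genes, 307 kept direction and side of the threshold, 25 lost it, 7 gained it and 1 turned. Tests of genes with 3 genes required or without Scrublet doublets against NO_AG, after thinning, or without Epcam-positive cells were not run, because mice fell below 5 cells. Depth limits genes with few UMIs in NO_AG, where 3 UMIs over the group equal 0.408 UMIs per 10000.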

Other observations

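Other gene groups of the 67 dendritic cells were sparse. Of 11 proliferation genes with a UMI in AG or NO_AG, 3 had both AG mice below both NO_AG mice and 0 above (9.51% and 19.6% over all genes), and of 12 with a UMI in AG_CPI or AG, 5 had both AG_CPI mice above and 0 below (14.5% and 12.6% over all genes). Their summed level was 7.26 and 19.0 UMIs per 10000 in NO_AG, then 0.65 and 4.17 in AG and then 9.46 and 3.84 in AG_CPI, and in NO_AG 2 the largest part was Stmn1, at 7.43. Of 15 growth factor receptor and transcription factor genes outside the rule, 5 were higher in both AG mice than in both NO_AG mice and 1 lower, and 2 were higher and 6 lower in AG_CPI than in AG, beside the same shares over all genes. Csf2rb, a chain of the GM-CSF receptor, was at 1.43 and 0.78 in NO_AG, then 2.26 and 4.97 in AG and then 3.44 and 2.47 in AG_CPI. Nr4a3, a nuclear receptor linked to dendritic cell migration, was at 2.15 and 1.45, then 3.95 and 3.70, then 3.04 and 1.99. Ccr2, a receptor of monocyte-derived and type 2 cells, was at 1.09 and 0.93 in NO_AG, then 0 and 0.16 in AG and then 0 in both AG_CPI mice, over 9 UMIs in all. Of 18 innate sensor genes, 10 had a UMI in AG or NO_AG, and Tlr1, Tlr4, Tlr6, Tlr8 and Clec4e had none in any dendritic cell.

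Genes of plasmacytoid dendritic cells, which make type I interferon, were found in a few cells. At least 2 of Cox6a2, Klk1, Pacsin1 and Runx2 were present in 5 cells, 3 in AG 2 and 2 in AG_CPI 2, which held all 52 Cox6a2 UMIs. These 5 cells fell in all 4 subsets. They held 30 of the 81 Ccl4 UMIs of all dendritic cells.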
